A study of Homo sapiens with 6 samples.

Results

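The 9 genes described here encode tyrosine kinases and receptor chains of one signalling route. FGR, LYN and FYN are SRC-family kinases, SYK is the kinase that binds phosphorylated receptor tails, BTK and TEC are TEC-family kinases, and CSK is the kinase that holds the SRC family in check. CD79A and CD79B are the signalling chains of the B cell receptor. The genes were chosen by name, with earlier results of these data known. All 9 were among the 12301 genes that both deposited count tables list. RNA-seq gene counts were measured in NB4, a human promyelocytic leukemia line. All-trans retinoic acid (ATRA) drives these cells to mature into granulocyte-like cells. They carried hairpin 1 or hairpin 2 against SMARCD2, a subunit of the BAF chromatin remodelling complex, or a control construct. Each construct was given 1 µM ATRA, labelled as the differentiated stage, or DMSO, the vehicle, labelled as undifferentiated. That made 6 libraries, with 2 knockdown libraries and 1 control library in ATRA and the same in DMSO. Only the NB4 line was used, the control construct had 1 library per treatment, and how long the cells were treated is not stated in the labels. The labels do not say whether libraries came from separate cultures, so the spread behind each p-value may be technical.

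In leukocytes, SRC-family kinases sit at the membrane and phosphorylate tyrosines in immunoreceptor tyrosine-based activation motifs (ITAMs) on receptor chains. SYK docks on the phosphorylated motif and phosphorylates adaptors, and TEC-family kinases then activate phospholipase C gamma. CSK phosphorylates the C-terminal tyrosine of SRC-family kinases, which folds them into an inactive form, and phosphatases such as CD45 reverse this. In neutrophils and monocytes the route serves Fc receptors and integrins through the ITAM adaptors FCER1G and TYROBP, whereas CD79A and CD79B serve the antigen receptor of B cells.

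Libraries held between 29291209 and 58099733 counts, as the sum of 2 count columns that were read as sequencing runs. Run 1 supplied 75.86% and 71.39% of the hairpin 1 and hairpin 2 counts in ATRA, and 53.11% of the control counts. In DMSO it supplied 80.74% and 70.61% of the hairpin counts and 54.65% of the control counts, so the mix of runs differed between knockdown and control in both treatments. SMARCD2, the target of the hairpins, was measured in CPM, counts scaled to library size. It had 64.2 and 35.6 CPM with hairpins 1 and 2 in ATRA, against 122 CPM in the control. In DMSO it had 39.0 and 25.7 CPM with the hairpins, against 95.5 CPM in the control, so it was lower in 4 of 4 knockdown libraries. Its knockdown log2 fold change was -1.29 ± 0.31 in ATRA and -1.55 ± 0.32 in DMSO (edgeR adjusted p = 0.321 and 0.393). The main test thus did not call the target itself, so a gene left uncalled by it is not shown to be unchanged. The authors' deposited tables list -0.40 for SMARCD2 in ATRA (adjusted p = 0.0073) and -0.96 in DMSO (adjusted p = 1.75e-21). Among 10 promyelocyte markers, MPO, the azurophil granule peroxidase, averaged 5105 CPM in ATRA and 9966 CPM in DMSO, and the marker list summed to 7266 to 8978 CPM in ATRA and 11311 to 11765 CPM in DMSO. Of these markers 9 were in both tables, and with ATRA 4 rose, 4 fell and 1 was not called by edgeR. The granule proteases PRTN3 and CTSG had log2 fold changes of 2.58 and -4.07, and the growth factor receptor CSF3R and the factor CEBPA had 2.16 and -1.42. ELANE, neutrophil elastase and a defining promyelocyte marker, was listed only in the DMSO table, at a mean of 0.341 CPM, so 1 defining marker of the labelled cell type was near 0.

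Start regions of 4 of the genes are printed because these genes span the responses described below, from the largest increase to a decrease. The sequences are RefSeq promoters on GRCh38.p14, from 250 bases before to 50 bases after the start, read 5′ to 3′ on the gene's strand. Capitals mark GAGGAA or its reverse complement TTCCTC, a core bound by PU.1 and other ETS factors, and CCCNNGGG, the core bound by the B cell factor EBF. RefSeq promoters were used for 7 of the 9 genes, 14 promoters in all, and LYN and CD79B are named only. Promoters on the chromosome of LYN were left out of these 14 by a filter. That filter was not applied to the set of all promoters given for comparison below. For CD79B no promoter was matched.
FGR, first start, chr1:27635136-27635435, minus strand: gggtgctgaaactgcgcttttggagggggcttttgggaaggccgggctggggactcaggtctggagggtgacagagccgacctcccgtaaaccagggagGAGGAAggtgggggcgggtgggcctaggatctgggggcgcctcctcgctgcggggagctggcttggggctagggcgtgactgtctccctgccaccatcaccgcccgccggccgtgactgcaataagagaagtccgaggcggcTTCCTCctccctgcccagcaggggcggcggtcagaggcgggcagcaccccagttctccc
CD79A, chr19:41877029-41877328, plus strand: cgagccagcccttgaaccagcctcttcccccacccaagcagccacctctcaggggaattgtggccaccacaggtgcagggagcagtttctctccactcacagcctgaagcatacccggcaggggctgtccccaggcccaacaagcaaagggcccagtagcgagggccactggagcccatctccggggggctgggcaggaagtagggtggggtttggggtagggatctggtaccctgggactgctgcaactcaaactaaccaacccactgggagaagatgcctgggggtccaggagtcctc
BTK, first start, chrX:101390747-101391046, minus strand: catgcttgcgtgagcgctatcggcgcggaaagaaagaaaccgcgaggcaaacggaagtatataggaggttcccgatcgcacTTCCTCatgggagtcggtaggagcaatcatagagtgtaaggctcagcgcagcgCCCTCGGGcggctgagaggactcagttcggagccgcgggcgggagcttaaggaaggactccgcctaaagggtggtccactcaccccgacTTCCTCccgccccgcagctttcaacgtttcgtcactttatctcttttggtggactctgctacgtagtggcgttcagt
FYN, first start, chr6:111873403-111873702, minus strand: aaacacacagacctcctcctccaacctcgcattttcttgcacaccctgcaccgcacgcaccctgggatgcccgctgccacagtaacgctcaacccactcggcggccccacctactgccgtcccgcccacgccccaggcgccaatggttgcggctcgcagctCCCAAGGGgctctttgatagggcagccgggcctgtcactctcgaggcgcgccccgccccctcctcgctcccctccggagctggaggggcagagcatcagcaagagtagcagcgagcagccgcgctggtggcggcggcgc

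The first FGR start region held GAGGAA from base -151 and TTCCTC from base -9, counted from the transcription start. The first BTK start region held TTCCTC from bases -169 and -27 and CCCNNGGG from base -116, the last overlapping a GC box (GGGCGG) from base -111. The CD79A region held none of the motifs searched, which were these 3, AGGTCA of retinoic acid receptors, TTGCNNAA of C/EBP factors, the octamer ATGCAAAT and TATAAA, each on both strands. GAGGAA or its complement lay in 6 of the 14 promoters (of FGR, SYK, CSK and BTK) and in 27.9% of all 35116 RefSeq promoters of the same length. CCCNNGGG lay in 2 of the 14, of FYN and BTK, against 19.1% of all promoters. AGGTCA lay in 1 promoter, at the second start of BTK, against 13.8% of all promoters. TTGCNNAA lay in 2 of the 14, of FYN and SYK, against 10.5%, and GGGCGG in 8 of the 14, against 45.0%. Neither the octamer nor TATAAA was found in any of the 14 promoters, against 1.77% and 11.5% of all promoters. Promoters of the same gene are not independent, and FGR, FYN, SYK and BTK have more than 1.

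The first comparison set ATRA against DMSO over the constructs (3 libraries each) and asked how the differentiation stimulus changed these genes. FGR, CD79A, LYN, CSK, SYK and BTK rose, and CD79B, FYN and TEC fell. FGR went up most, and CD79A and CD79B, which form a heterodimer in B cells, moved in opposite directions. Of the 9 genes, 6 were higher and 3 lower at an adjusted p under 0.05 by edgeR's quasi-likelihood test, where 36.2% of all genes were called higher and 37.8% lower. That split was 4450 higher and 4650 lower, and 3637 higher and 5722 lower when libraries were scaled by total counts, which left all 9 calls and directions in place. Libraries of the treatments did not overlap in CPM for 9 of 9 genes and for 77.1% of all genes, so being called or separated did not set these genes apart from the background. The median absolute log2 fold change was 1.22 over the 9 genes and 0.44 over all genes. The median signed log2 fold change was 0.71 over the 9 genes and -0.01 over all genes. The 9 genes were chosen with earlier results of these data known, so these medians cannot test whether the set stands apart from all genes. In bulk RNA, a change in the share of cells that express a gene and a change in RNA per cell cannot be told apart.

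FGR, a SRC-family kinase of mature neutrophils and monocytes, had 709 CPM with hairpin 1, 618 CPM with hairpin 2 and 797 CPM with the control in ATRA. In DMSO it had 1.71, 1.53 and 1.49 CPM in the same order of constructs, from 103, 67 and 46 counts. Every ATRA library was more than 2 orders of magnitude above every DMSO library. The means were 708 ± 90.0 CPM in ATRA and 1.58 ± 0.116 CPM in DMSO (SD, n = 3 each), a log2 fold change of 8.77 ± 0.11 (SE; edgeR adjusted p = 3.92e-10). By log2 fold change FGR stood eighth from the top of the 12301 genes.

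LYN, the SRC-family kinase that can both start and restrain signalling in myeloid and B cells, had 211, 198 and 226 CPM with hairpin 1, hairpin 2 and the control in ATRA. In DMSO it had 65.4, 75.4 and 63.1 CPM. The control was the highest of the ATRA libraries and the lowest of the DMSO libraries. LYN averaged 212 ± 14.3 CPM in ATRA and 68.0 ± 6.55 CPM in DMSO (SD, n = 3 each), and rose by 1.64 ± 0.08 on the log2 scale (edgeR adjusted p = 3.11e-07).

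FYN, a broadly expressed SRC-family kinase best known from T cells and brain, ran against its relatives. It had 17.5 and 15.5 CPM with hairpins 1 and 2 and 28.2 CPM with the control in ATRA. In DMSO it had 37.4 and 35.1 CPM with the hairpins and 44.5 CPM with the control. The hairpin libraries were the lowest in each treatment, and the treatments did not overlap. The means were 20.4 ± 6.81 CPM in ATRA and 39.0 ± 4.92 CPM in DMSO (SD, n = 3 each), with a log2 fold change of -0.98 ± 0.10 (edgeR adjusted p = 3.73e-05).

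SYK had 209, 203 and 227 CPM with hairpin 1, hairpin 2 and the control in ATRA, and 133, 123 and 133 CPM in DMSO. The libraries of each treatment lay close together, and SYK rose by 0.71 ± 0.05 on the log2 scale (edgeR adjusted p = 2.19e-06; 213 ± 12.1 CPM in ATRA and 130 ± 5.57 CPM in DMSO). BTK, the TEC-family kinase whose loss in humans causes X-linked agammaglobulinemia, had 180, 188 and 168 CPM in ATRA and 109, 115 and 115 CPM in DMSO. It rose by 0.66 ± 0.05 (edgeR adjusted p = 6.24e-06; 179 ± 10.2 CPM in ATRA and 113 ± 3.49 CPM in DMSO), much the same size as SYK. TEC, the founding kinase of that family, was the least abundant kinase of the set in ATRA and fell. It had 4.99, 6.70 and 4.78 CPM in ATRA and 8.86, 11.1 and 7.11 CPM in DMSO, and hairpin 2 was the highest library in each treatment. TEC averaged 5.49 ± 1.05 CPM in ATRA and 9.02 ± 2.00 CPM in DMSO, a log2 fold change of -0.71 ± 0.15 (edgeR adjusted p = 0.00265). The highest ATRA library and the lowest DMSO library of TEC were only 6.70 and 7.11 CPM.

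CSK, the inhibitory kinase, had 235, 254 and 232 CPM with hairpin 1, hairpin 2 and the control in ATRA, against 110, 95.7 and 104 CPM in DMSO. It rose by 1.22 ± 0.06 on the log2 scale (edgeR adjusted p = 4.33e-07), less than LYN and FGR and more than SYK and BTK.

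CD79A had 34.1, 34.0 and 34.4 CPM with hairpin 1, hairpin 2 and the control in ATRA. In DMSO it had 1.01, 0.957 and 1.46 CPM, from 61, 42 and 45 counts. The ATRA libraries lay within 33.99 to 34.38 CPM, and all were far above the DMSO libraries. The means were 34.2 ± 0.194 CPM in ATRA and 1.14 ± 0.276 CPM in DMSO (SD, n = 3 each), a log2 fold change of 4.94 ± 0.12 (edgeR adjusted p = 8.08e-09). CD79B showed the mirror image. It had 0.739, 0.632 and 0.921 CPM in ATRA, from 36, 27 and 26 counts, and 14.7, 17.2 and 15.3 CPM in DMSO. It averaged 0.764 ± 0.146 CPM in ATRA and 15.7 ± 1.30 CPM in DMSO (SD, n = 3 each), a log2 fold change of -4.39 ± 0.16 (edgeR adjusted p = 5.22e-08). By log2 fold change CD79B stood 34th from the bottom of the 12301 genes. Per kilobase of exon, CD79A exceeded CD79B by 46.3 ± 8.34 times in ATRA, and CD79B exceeded CD79A by 14.2 ± 3.72 times in DMSO (SD, n = 3 each).

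**Figure D1:**
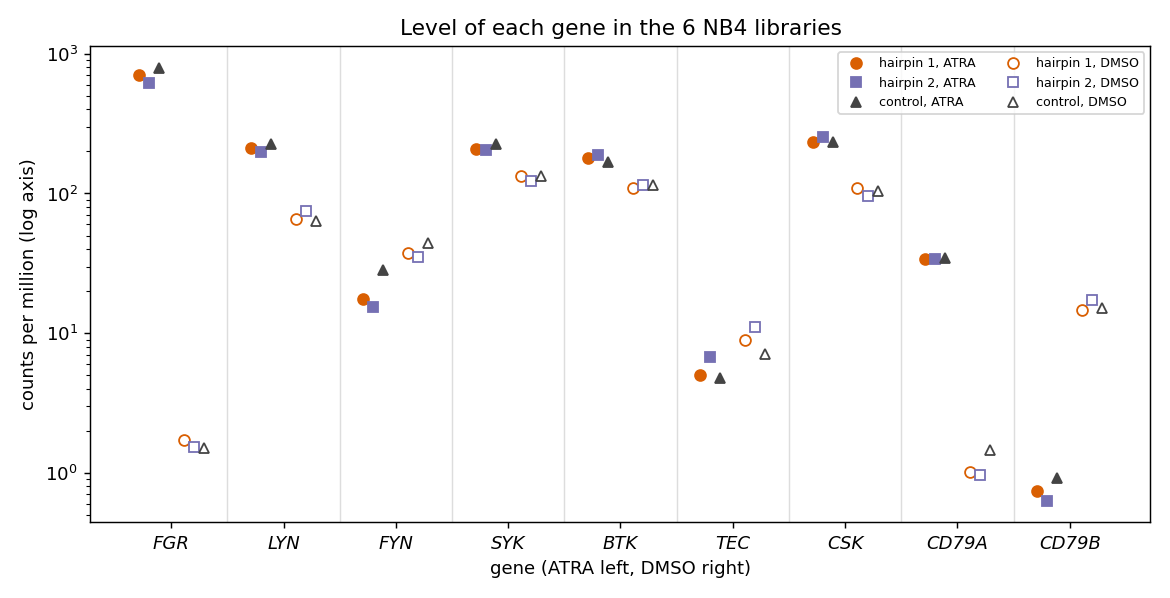
CPM (log axis) of the 9 genes in the 6 libraries, with ATRA libraries filled and to the left of DMSO libraries (open) and a marker for each construct. FGR and CD79A are high in ATRA (617.5 to 797.4 and 33.99 to 34.38 CPM) and near 1 CPM in DMSO, and CD79B shows the opposite.

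Levels of different genes were compared per kilobase of merged exons (GENCODE 29 basic annotation). In ATRA the order of mean levels in CPM per kilobase was FGR at 232, CSK at 76.7, BTK at 57.8, SYK at 41.2, LYN at 35.9, CD79A at 27.2, FYN at 4.93, TEC at 1.49 and CD79B at 0.601. The libraries of neighbours in that order did not overlap. In DMSO the order was BTK at 36.5, CSK at 32.9, SYK at 25.0, CD79B at 12.4, LYN at 11.5, FYN at 9.42, TEC at 2.45, CD79A at 0.909 and FGR at 0.516. There the libraries of CD79B and LYN overlapped, as did those of LYN and FYN. FGR was thus last in DMSO and first in ATRA, while CSK held the second place in both treatments.

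The make-up of SRC-family kinase RNA was taken over FGR, LYN, FYN, YES1 and SRC, and shares are of the sum of these 5 genes, not of the whole family. Of their summed CPM per kilobase, FGR made up 81.6 ± 0.66% in ATRA and 1.68 ± 0.137% in DMSO (SD, n = 3 each). LYN made up 12.7 ± 0.672% in ATRA and 37.6 ± 3.27% in DMSO, and FYN made up 1.71 ± 0.374% in ATRA and 30.7 ± 3.99% in DMSO. YES1, the other broadly expressed member, made up 3.75 ± 0.304% in ATRA and 29.1 ± 2.00% in DMSO. SRC itself made up 0.164 ± 0.0154% in ATRA and 0.985 ± 0.212% in DMSO. The sum was 284 ± 33.9 CPM per kilobase in ATRA and 30.7 ± 0.322 in DMSO, and its ratio to CSK was 3.72 ± 0.607 in ATRA and 0.936 ± 0.0745 in DMSO. LYN was higher in level and lower in share in ATRA than in DMSO, and both CSK and the sum were higher in ATRA.

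**Figure D2:**
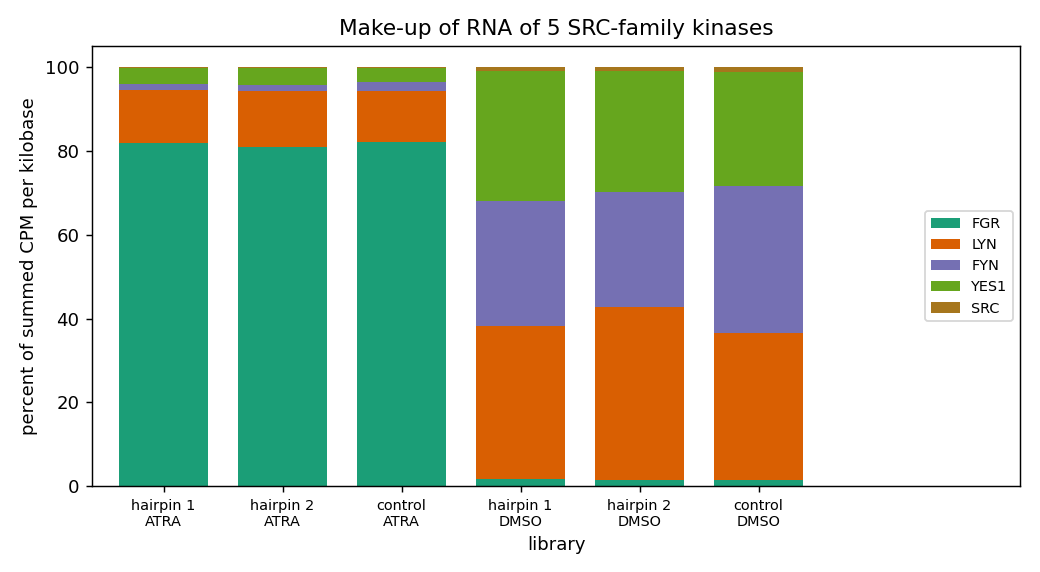
Stacked bars give the percent of summed CPM per kilobase taken by each of 5 SRC-family kinases in each library, ATRA libraries to the left of DMSO libraries. FGR takes 80.9% to 82.2% in the ATRA libraries and 1.59% to 1.84% in the DMSO libraries.

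The response had the same direction in each construct for all 9 genes. The ATRA over DMSO log2 ratio of FGR was 8.66 with hairpin 1, 8.62 with hairpin 2 and 9.02 with the control. FYN had ratios of -1.09 and -1.18 with the hairpins and -0.66 with the control. CD79A had 5.01 and 5.08 with the hairpins and 4.51 with the control, and CD79B had -4.23 and -4.67 with the hairpins and -3.98 with the control. LYN had 1.69 and 1.39 with the hairpins and 1.84 with the control. For the remaining genes the ratios across constructs ran between 0.65 and 0.77 for SYK, 0.55 and 0.73 for BTK, 1.10 and 1.41 for CSK, and -0.82 and -0.57 for TEC.

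Other genes of the route were taken from 5 lists, chosen with earlier results of these data known and with the 9 genes left out. Among other SRC, SYK and TEC family kinases, 4 of 9 were in both tables, and 2 rose, 1 fell and 1 was not called (median log2 fold change 0.07, against -0.01 over all genes). SRC rose by 0.65 ± 0.21 (edgeR adjusted p = 0.0194) and YES1 by 0.24 ± 0.06. MATK, a CSK-related inhibitory kinase, fell by 0.56 on the log2 scale, to 54.2 CPM in ATRA against 79.4 CPM in DMSO. TXK had 2.59 CPM in ATRA and 2.79 CPM in DMSO and was not called. BMX was in the ATRA table only (mean 2.66 CPM) and ZAP70, the T cell relative of SYK, in the DMSO table only (0.713 CPM). LCK, BLK and FRK were in neither table as used here.

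Of 12 receptors and adaptors that carry an ITAM or signal through a partner that does, 9 were in both tables, and 7 rose, 1 fell and 1 was not called (median log2 fold change 1.96). FCER1G, the common Fc receptor gamma chain, rose by 3.57 ± 0.15, to 58.5 CPM in ATRA against 4.88 CPM in DMSO. TYROBP (DAP12), the other main myeloid ITAM adaptor, rose by 3.37 ± 0.11, and CD300LB, a receptor that pairs with it, by 3.46 ± 0.12. FCGR2A, an Fc receptor with an ITAM of its own, rose by 2.08 ± 0.14, a value that is uncertain because near-identical copies of the gene can share reads. CD3D, a T cell receptor chain, fell by 1.14 on the log2 scale. CLEC7A and CD3E were in the ATRA table only, at 24.7 and 0.456 CPM, and CD3G in the DMSO table only, at 0.446 CPM. The summed level of the list was 377 to 428 CPM in ATRA and 99.2 to 121 CPM in DMSO.

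Of 34 adaptors and effectors that act after the kinases, 32 were in both tables, and 21 rose, 10 fell and 1 was not called (median log2 fold change 0.66). The largest increases were in PIK3R5, a regulatory subunit of phosphoinositide 3-kinase gamma, by 3.28 ± 0.09, and in FYB, an adaptor that binds FYN and LCP2, by 3.14 ± 0.13. RASGRP4, a RAS exchange factor of mast and myeloid cells, rose by 2.82 ± 0.15, and SH3BP2, a SYK-binding adaptor, by 2.78 ± 0.05. PLCG1, VAV2 and GAB2 had the largest decreases, at -2.01 ± 0.06, -1.66 ± 0.11 and -1.38 ± 0.05. Relatives with the same biochemical role thus differed in direction, since PLCG2, a substrate of BTK, had 305 CPM in ATRA and 168 CPM in DMSO (0.86 ± 0.04), and VAV1 had 147 CPM in ATRA and 51.0 CPM in DMSO (1.52 ± 0.04).

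Of 22 inhibitory phosphatases, adaptors and ligases, 21 were in both tables, and 16 rose, 2 fell and 3 were not called (median log2 fold change 0.97). SLA, an adaptor that brings ubiquitin ligases to receptor kinases, rose by 4.81 ± 0.16, to 462.6 CPM in ATRA against 16.6 CPM in DMSO. PAG1, the membrane anchor of CSK, rose by 3.40 ± 0.09, PTPN22, a phosphatase that partners with CSK, by 3.09 ± 0.06, and SOCS3 by 2.42 ± 0.18. INPP5D (SHIP1), a lipid phosphatase, fell by 0.78 on the log2 scale, and UBASH3B fell by 0.55. The list summed to 3873 to 3981 CPM in ATRA and 2039 to 2262 CPM in DMSO, and the adaptors and effectors summed to 4892 to 4926 CPM in ATRA and 2590 to 2802 CPM in DMSO.

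B cell markers were listed because CD79A and CD79B mark that lineage. Of 22 markers, 6 were in both tables, and 3 rose, 2 fell and 1 was not called (median log2 fold change 0.68). CR2 rose by 4.16 ± 0.24, to 4.02 CPM in ATRA against 0.224 CPM in DMSO, CD24 by 3.26 ± 0.26 and BANK1 by 1.93 ± 0.20, while TNFRSF13C fell by 1.80 and CD72 by 0.60 on the log2 scale. CD22 (10.7 CPM), CD40 (15.0 CPM), PAX5 (0.497 CPM) and SPIB (0.301 CPM) were in the ATRA table only and EBF1 (0.374 CPM) in the DMSO table only. The remaining 11, among them MS4A1 (CD20), IGHM, IGKC, VPREB1 and POU2AF1, were in neither table as used here. The list summed to 29.2 to 30.6 CPM in ATRA and 17.7 to 21.4 CPM in DMSO, over the genes in both tables. The only cells used were the NB4 line, and the cause of the CD79A and CD79B changes was not tested.

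**Figure D3:**
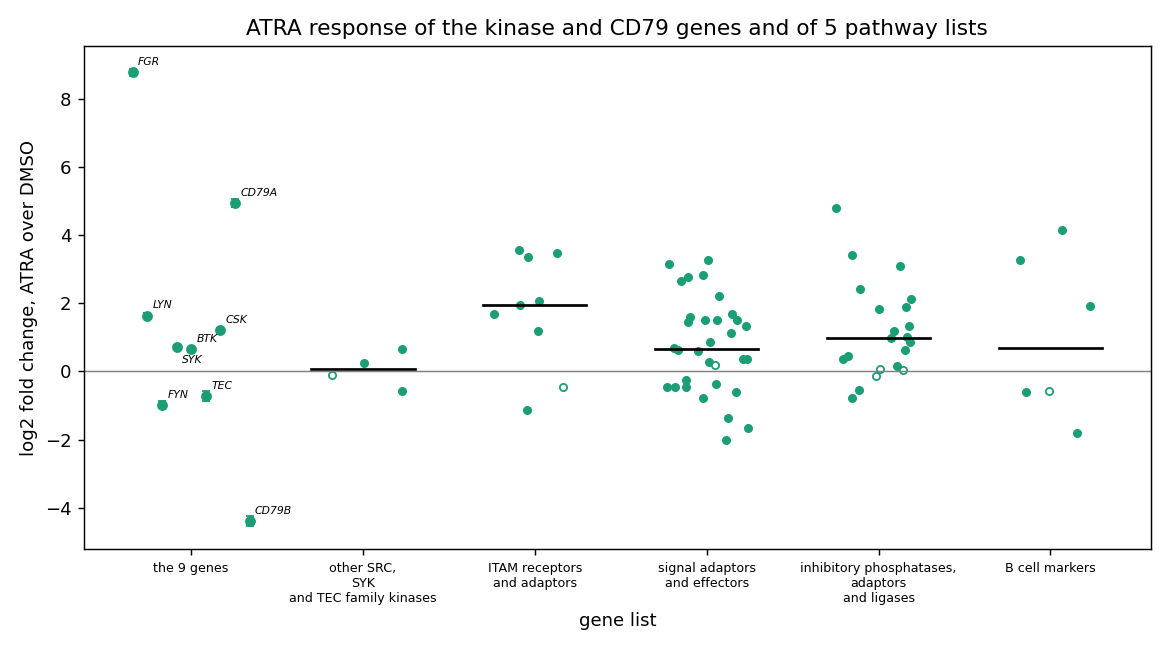
Log2 fold change of ATRA over DMSO for the 9 genes (bars are SE) and for the genes of 5 lists, filled where the edgeR adjusted p was under 0.05, with a black line at each list's median. FGR (8.77) and CD79A (4.94) lie above every gene of the lists, and CD79B (-4.39) below every one.

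The knockdown comparisons asked whether SMARCD2 level changed these genes within each treatment. In ATRA, FYN was lower with both hairpins, at 17.5 and 15.5 CPM against 28.2 CPM in the control, the largest knockdown difference among the 9 genes. It did not pass the threshold in the main test. The log2 fold change was -0.77 ± 0.11 (SE, n = 2 knockdown and 1 control; unadjusted p = 0.000114 and adjusted p = 0.155, edgeR), eighth by p among 12301 genes. In ATRA 0 of the 9 genes were called, where 0.00813% of all genes were called (1 gene), and 2 of the 9 had an unadjusted p under 0.05 by edgeR, as did 1329 of the 12301 genes. FGR was the other, with 709 and 618 CPM in the hairpin libraries and 797 CPM in the control, a log2 fold change of -0.27 ± 0.09 (edgeR unadjusted p = 0.018, adjusted p = 0.388). The lone control library of each treatment is assumed to vary like the knockdown libraries.

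The FYN call depended on the method. DESeq2 gave -0.77 (adjusted p = 0.0017) in a test that called 0.558% of genes. With the construct as a replicate block, which pairs the treatments and removes the spread between constructs, edgeR gave -0.77 (adjusted p = 0.000497) for FYN and -0.27 (adjusted p = 0.0255) for FGR, and 2.83% of genes were called. That fit has 1 residual degree of freedom and its p-values leave out what constructs differ by, so they can understate the error. The authors' deposited table lists -0.60 (adjusted p = 8.98e-08) for FYN and -0.25 (adjusted p = 0.01315) for FGR, in a table where 4.42% of genes with an adjusted p are under 0.05. What that test counted as a sample is not stated, and the authors' deposited table holds a column for each run. How its fold changes were computed is not stated either. For SMARCD2 in ATRA it lists -0.40, where the main fit gave -1.29. The deposited sizes for FYN and FGR therefore cannot be compared directly with those of edgeR and DESeq2. The authors' deposited table for ATRA gives adjusted p between 0.297 and 0.968 for 6 of the other genes and none for CD79B.

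The runs gave the same picture for FYN. They are read as runs of the same libraries, so they show only that sequencing repeated, not that the difference would repeat in other libraries. In run 1 FYN had 17.5 and 15.0 CPM with the hairpins and 28.0 CPM with the control in ATRA, and in run 2 it had 17.7 and 16.7 CPM with the hairpins and 28.4 CPM with the control. The log2 fold change in ATRA was -0.77 from run 1 alone (edgeR adjusted p = 0.183) and -0.73 from run 2 alone (edgeR adjusted p = 0.118). Without hairpin 1 it was -0.86 (edgeR adjusted p = 0.176), and without hairpin 2 it was -0.69 (edgeR adjusted p = 0.925). These set 1 knockdown library against 1 control library, with a spread taken from the DMSO knockdown libraries alone (1 residual degree of freedom), so their p-values assume that the ATRA libraries vary like those. FGR in ATRA had -0.27 from run 1 and -0.28 from run 2 (edgeR adjusted p = 0.418 and 0.259), and -0.37 without hairpin 1 and -0.17 without hairpin 2.

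**Figure D4:**
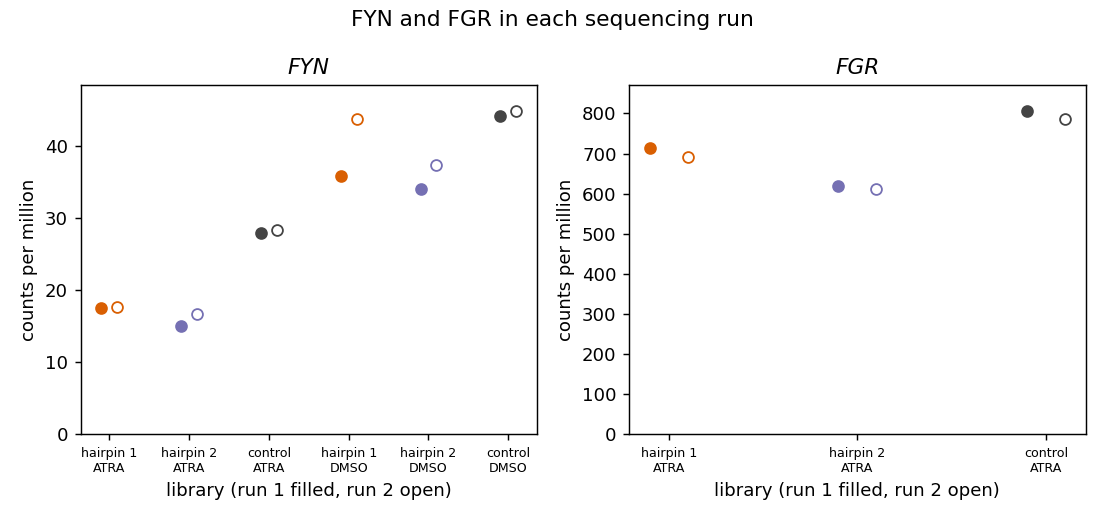
CPM of FYN (left, all libraries) and FGR (right, ATRA libraries) in each sequencing run, with run 1 filled and run 2 open and linear axes from 0. In ATRA the hairpin libraries lie below the control in both runs, at 15.0 to 17.7 CPM for FYN against 28.0 and 28.4 CPM.

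None of the remaining kinases was called in ATRA. LYN had -0.15 ± 0.09, SYK -0.14 ± 0.07, BTK 0.13 ± 0.07, TEC 0.28 ± 0.25 and CSK 0.08 ± 0.09 as log2 fold changes of knockdown over control, with edgeR adjusted p between 0.515 and 0.792. TEC was 0.48 without hairpin 1 and 0.054 without hairpin 2, and CSK was 0.13 and 0.013. CD79A had -0.01 ± 0.10 (edgeR adjusted p = 0.975). CD79B had -0.42 ± 0.32 (edgeR adjusted p = 0.667) from 36 and 27 counts with the hairpins and 26 counts in the control, too few to resolve a difference of that size. Both hairpins lay on one side of the control for 9 of 9 genes in ATRA, where 76.7% of all genes did. FGR, LYN, FYN, SYK, CD79A and CD79B lay below it (37.4% of all genes) and BTK, TEC and CSK above it (39.2% of all genes).

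In DMSO, FYN and CD79A had lower values and FGR, LYN and TEC higher values with both hairpins than with the control, and none passed the test. FYN had 37.4 and 35.1 CPM with the hairpins and 44.5 CPM in the control, a log2 fold change of -0.30 ± 0.10 (edgeR unadjusted p = 0.0195, adjusted p = 0.66). It was -0.34 from run 1 alone and -0.14 from run 2 alone. CD79A had 61 and 42 counts with the hairpins and 45 counts in the shallower control library, which made 1.01 and 0.957 CPM against 1.46 CPM and a log2 fold change of -0.56 ± 0.21 (edgeR unadjusted p = 0.0338, adjusted p = 0.706). TEC had 8.86 and 11.1 CPM with the hairpins and 7.11 CPM in the control, at 0.49 ± 0.24 (edgeR adjusted p = 0.719). FGR had 0.13 ± 0.25, LYN 0.16 ± 0.10, SYK -0.05 ± 0.07, BTK -0.04 ± 0.07, CSK -0.02 ± 0.09 and CD79B 0.06 ± 0.17, with edgeR adjusted p between 0.777 and 0.978. Of the 9 genes 0 were called, as were 0% of all genes by edgeR, where 868 genes had an unadjusted p under 0.05 and DESeq2 called 38. Both hairpins lay on one side of the control for 5 of the 9 genes, and for 69.9% of all genes. The authors' deposited table for DMSO gives adjusted p of 0.241 or more for 8 of the 9 genes and none for CD79A, in a table where 1.27% of genes are under 0.05.

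FYN and CD79A lay below the control with both hairpins in both treatments, 2 of 9 genes against 14.2% of all genes. TEC lay above it in both treatments, 1 of 9 genes against 14.6% of all genes.

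**Figure D5:**
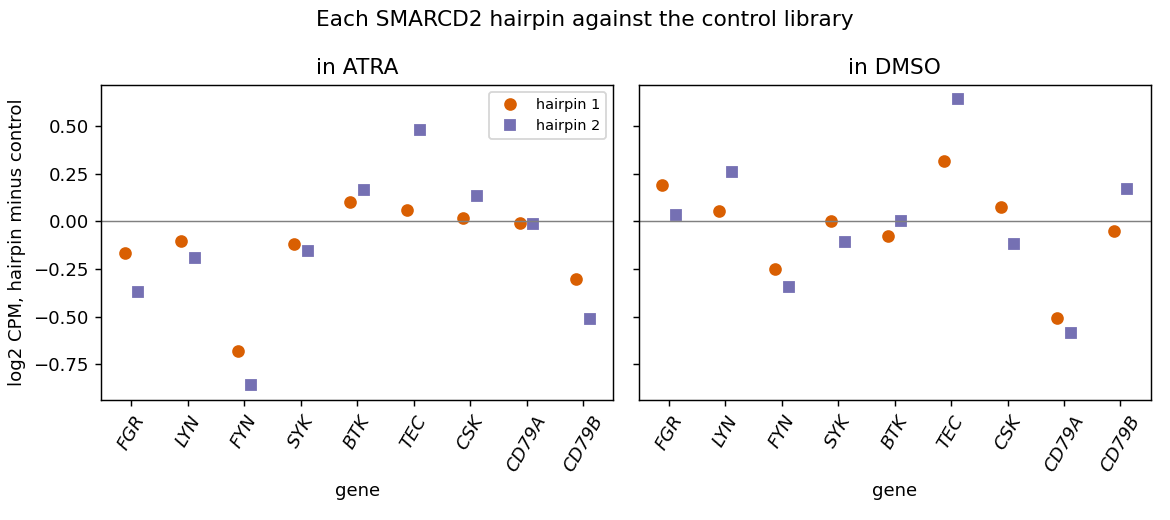
Log2 CPM of each hairpin library minus the control library for the 9 genes, in ATRA (left) and in DMSO (right), with a point per hairpin. FYN lies lowest in ATRA, at -0.68 with hairpin 1 and -0.86 with hairpin 2.

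The difference in ATRA response between knockdown and control was tested as an interaction, and 0 of the 9 genes were called, where 0.0488% of all genes were (6 genes, all lower). FYN had the smallest p of the 9, at -0.47 ± 0.15 on the log2 scale (edgeR unadjusted p = 0.0135, adjusted p = 0.546). CD79A had 0.55 ± 0.23 (edgeR unadjusted p = 0.0451, adjusted p = 0.608), which rests on the DMSO counts of 42 to 61. LYN had -0.30 ± 0.13, FGR -0.39 ± 0.26, CD79B -0.48 ± 0.36, TEC -0.20 ± 0.34, BTK 0.17 ± 0.10, CSK 0.09 ± 0.13 and SYK -0.08 ± 0.10, with edgeR adjusted p between 0.631 and 0.909. With a library left out, TEC ran from -0.44 to -0.0015. For FGR the interaction is small beside the response itself, which was 8.62 or more in every construct.

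Hairpin 2 lowered SMARCD2 further than hairpin 1, with a log2 difference of -0.73 ± 0.07 over both treatments (edgeR adjusted p = 3e-06). Between the hairpins 0 of the 9 genes were called by edgeR, where 2.03% of all genes were, and 2 of the 9 had an unadjusted p under 0.05, as did 1380 of 12300 genes. TEC was higher with hairpin 2 in value, at 6.70 CPM against 4.99 CPM in ATRA and 11.1 CPM against 8.86 CPM in DMSO (0.37 ± 0.13, edgeR adjusted p = 0.176). FGR was lower with hairpin 2 in value, at 618 CPM against 709 CPM in ATRA (-0.19 ± 0.07, edgeR adjusted p = 0.208). Of 6 alternative settings only limma-voom called it (-0.20, adjusted p = 0.041), with 1 residual degree of freedom. That test also called more of all genes than edgeR did. FYN had -0.13 ± 0.08, and the other 6 genes lay between -0.07 and 0.16.

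None of the genes of the lists was called in the knockdown comparisons or in the interaction. Of the 11 list genes in 1 table only, 0 were called in the fit within their table, where 0.00779% of genes were called in the ATRA table and 0% in the DMSO table. None of these 11 had an unadjusted p under 0.05 by edgeR (smallest adjusted p 0.687). The ITAM receptor list had a median knockdown log2 fold change of -0.10 in ATRA and 0.37 in DMSO, and the adaptor and effector list -0.00145 in ATRA and 0.0783 in DMSO. The medians over all genes were 0.00437 in ATRA and 0.0011 in DMSO. The remaining lists had medians from -0.098 to 0.215 in ATRA and from -0.094 to 0.118 in DMSO. The ITAM medians rest on 9 genes against 1 control library per treatment.

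Genes with the most similar profile over the 6 libraries were found by the distance between centred log2 CPM profiles, over the 11770 genes whose mean reached 1 CPM. Profiles were not scaled, so a near gene is mainly one with a similar size of ATRA response. Shared regulation was not tested. For FGR these were ASB2, a ubiquitin ligase subunit known as a retinoic acid target in promyelocytic cells, at a distance of 0.462, KCNH4 at 0.563 and ALOX5AP, the 5-lipoxygenase activating protein, at 0.604. Their ATRA responses were 8.89, 8.52 and 8.36 on the log2 scale. For CD79A the nearest were CCDC88B at 0.426, PLCB2 at 0.432 and GCH1 at 0.47. For CD79B they were DES at 0.374, MCAM at 0.393 and NKD2 at 0.395. The nearest gene was IFITM2 for LYN (0.114), SH3D21 for FYN (0.21), SLC7A11 for SYK (0.0463), KIAA1109 for BTK (0.0612), RAB11FIP5 for TEC (0.216) and CORO2A for CSK (0.0624).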

How the data were processed

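The 6 NB4 libraries were made with the GeneJET RNA kit and the NEBNext Ultra RNA kit, per the labels' protocols. The submitters' processing notes name the build GRCh37.p13 and the tools STAR, bcl2fastq, DESeq2 and Picard 2.5.0. Their roles, the counting and its use of strand are not given in the sources used here, so reads of a gene and of an antisense partner cannot be told apart. The authors deposited 1 table per treatment, with 12838 genes for ATRA and 12752 for DMSO, as raw counts in 2 columns per library. The authors' log2 fold changes for knockdown against control, and their p-values and adjusted p-values, are also deposited there. The 12 columns of normalized values were not used.

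Counts of the 2 columns were summed per library, and full table totals were the library sizes. Genes in both tables (12301) were tested with edgeR 4.0.16 (R 4.3.3; filterByExpr, TMM, quasi-likelihood test, Benjamini-Hochberg adjustment over all genes, threshold 0.05). The filter removed 0 genes, and 1 in the hairpin comparison. ATRA against DMSO was fitted with knockdown state as a term (3 residual degrees of freedom). Knockdown against control and the interaction came from a fit of 4 groups (2 residual degrees of freedom), and the hairpins from a fit of the 4 knockdown libraries and treatment, with 1 residual degree of freedom. The SE of a log2 fold change is its size over the square root of F. CPM uses TMM-scaled library sizes. Exon lengths come from GENCODE 29 and promoters from RefSeq. The scripts were tested on simulated data. Alternatives were DESeq2 1.42.0, limma-voom (limma 3.58.1), total-count scaling, no low-count filter, each run alone, each library left out, the 4-group fit for the ATRA response, and the construct as a replicate block. Figures were drawn with matplotlib 3.10.9.

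Titles pair the treatments, since the same construct appears in both. Deviations from the treatment mean in ATRA correlated with those in DMSO across 12301 genes at 0.144 for hairpin 1, 0.218 for hairpin 2 and 0.104 for the control, and at 0.186, 0.21 and 0.0782 for the 9467 genes of at least 10 CPM. The control's value was the lowest in both sets of genes. The construct numbers were used as pairs only in the replicate-block fit and in the ratios given per construct. The main fits did not pair the treatments. Whether libraries of a construct shared a culture was not tested. The 9 genes and the lists were chosen with earlier results of these data known. Some genes of the lists are not reported here and were left out of the counts. In the text all 9 genes are named, with the 4 list genes of the largest ATRA response per list among those called, every list gene in 1 table only, any list gene called in a knockdown comparison, and the genes nearest in profile. MPO, TXK, PLCG2 and VAV1, and the genes that fell PLCG1, VAV2, GAB2, INPP5D, UBASH3B, CD3D and CD72, lie outside that rule and were named after their values were seen.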

Additional observations from a re-analysis of the deposited data

How the results depend on the processing

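For ATRA against DMSO, the 9 genes kept direction and call in 126 of 126 recomputed values, with log2 fold changes of 8.64 to 9.13 for FGR and 4.81 to 5.14 for CD79A. Scaling by total counts moved the median of all genes to -0.143 and the split to 3637 higher and 5722 lower, against 4450 and 4650 with TMM. There SYK stood at 0.58 and BTK at 0.53, still above that median.

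Counts of calls in the knockdown comparisons depended on the method. In DMSO, 0 higher and 0 lower became 32 and 6 with DESeq2, 2 and 1 with run 2 only, 85 and 31 with the replicate block, and 0 to 20 and 0 to 1 with a library left out (20 and 1 without hairpin 1 in DMSO). In ATRA, 0 higher and 1 lower became 18 and 36 with DESeq2, 149 and 199 with the replicate block, 7 lower with run 2 only, and 0 to 1 lower with a library left out (0 without either hairpin in ATRA). Among the 9 genes, DESeq2 called 1 lower in ATRA and the replicate block called 2, FYN and FGR. For the interaction, 0 higher and 6 lower became 1 and 47 with DESeq2, 16 and 113 with the replicate block, 2 lower with limma-voom, and 1 to 2 lower with a library left out. For the hairpins, 160 higher and 90 lower became 29 and 20 with DESeq2 and 266 and 175 with limma-voom, which called 1 of the 9 genes lower (FGR). The replicate block changed no other call of the 9 genes, and the cause of these shifts was not tested.

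Values near 0 changed sign. For knockdown in DMSO, with run 1 only CD79B was -0.0075, with run 2 only FGR was -0.44 and BTK 0.049, and with a hairpin library left out SYK ran from -0.094 to 0.0085, BTK from -0.0696 to 0.016, CSK from -0.11 to 0.082 and CD79B from -0.045 to 0.19. For knockdown in ATRA, CD79A was 0.059 with run 1 only. For the interaction, TEC was 0.027 with run 1 only, FGR was 0.16 with run 2 only, and CSK ran from -0.0097 to 0.18 with a library left out. For the hairpins, CD79A was 0.0011 with total counts and 0.045 with run 1 only, and CSK 0.036 with run 2 only. None of these was called. The hairpin comparison has no residual degrees of freedom with a library left out. With 1 control library per treatment and 26 to 103 counts for FGR and CD79A in DMSO and CD79B in ATRA, small differences in those genes were not detectable at this depth.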

Other observations

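The columns read as sequencing runs of a library differed for single genes. Run 2 gave a higher CPM than run 1 in every library for LYN, FYN, SYK and BTK, 4 of the 9 genes against 16.5% of all genes, and run 1 a higher CPM for CSK, 1 of the 9 genes against 16.8% of all genes. For values with at least 100 counts in each run (42 of 54), the log2 ratio of run 2 to run 1 ran from -0.26 to 0.29. For FYN it was 0.29 with hairpin 1 in DMSO and between 0.01 and 0.15 in the other libraries. The count columns are taken here as runs of the same libraries, and the knockdown libraries drew more of their counts from run 1.

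The spread between constructs differed among the genes. In ATRA the coefficient of variation over the 3 libraries was 0.569% for CD79A, 4.98% for CSK and 33.4% for FYN, and in DMSO it was 24.2% for CD79A, 6.79% for CSK and 12.6% for FYN (n = 3 each). The remaining genes lay between 5.70% and 19.2% in ATRA and between 3.09% and 22.2% in DMSO. For CD79A in ATRA, the control, hairpin 1 and hairpin 2 had 32.8, 33.6 and 34.5 CPM in run 1 and 36.2, 35.8 and 32.8 CPM in run 2. Its small spread in ATRA therefore cannot be read as a lack of difference between constructs. Its DMSO value rests on few counts.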
